A study of Mus musculus with 6 samples.

Results

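The genes described here are the enzymes that set and remove DNA methylation and the proteins that bind it: the methyltransferases Dnmt1, Dnmt3a and Dnmt3b, the TET enzymes Tet1, Tet2 and Tet3, and the methyl-CpG binding domain proteins Mbd1, Mbd2 and Mbd3. They were taken by gene symbol, 9 of the 55394 genes listed for each library, and each symbol occurred once. The set was chosen by the measured FPKM of Dnmt3a, near 0 in the libraries of antibiotic-exposed pups and not in the controls, and filled with the relatives of Dnmt3a in function whatever their values. The values of Dnmt3a are therefore given as a description with no test, and the question was whether the other 8 genes showed the same loss.

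Transcripts were measured by SMART-seq, a low-input RNA-seq method, in group 2 innate lymphoid cells (ILC2s) from lungs of neonatal C57BL/6 wild-type mice. The 3 Abx libraries came from pups whose mothers received several antibiotics by drinking water in mid-gestation (days 10 to 14), and the 3 Con libraries from pups of control dams. Each library came from 1000 cells sorted as live CD45+ Lin- CD90.2+ CD25+ ILC2s, and the labels give no age, sex or number of pups behind a library. Nothing in the labels says that the libraries of a group came from separate litters, so p-values measure only the spread between these samples. Levels are FPKM, fragments scaled to exon length and to the mapped reads of the library, which allow genes of different length to be set side by side. How many reads stand behind a library is not given in the files.

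DNA methylation in mammals sits mainly on the cytosine of CpG dinucleotides. Dnmt3a and Dnmt3b place it on unmethylated DNA, Dnmt1 copies it to the new strand at replication, and the TET enzymes oxidise it, after which base excision repair can restore the plain cytosine. The MBD proteins bring repressor complexes to methylated DNA, and in lymphocytes these enzymes are known for marking cytokine genes as cells commit to a lineage.

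In the Con libraries Dnmt3a was a readily seen transcript of these cells, and in the Abx libraries it was almost absent. Among the other 8 genes the Abx means of Dnmt1, Dnmt3b, Mbd2 and Mbd3 lay above those of Con, and 1 Abx library carried each of these means. Mbd1 and Mbd3 were found at 1 FPKM or more in every library of both groups. The TET enzymes and Dnmt3b were found in few libraries of either group, and none of these 8 genes separated the groups. For Dnmt3b, Tet1 and Tet2 a Con library was listed at 0, so a loss without overlap could not show.

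Dnmt3a (ENSMUSG00000020661) lies on the plus strand of GRCm38 at chr12:3806007-3914443, with 18 annotated transcripts. RefSeq places starts near its upstream end and at an internal site, and the value per gene sums transcripts from all of them. Dnmt3b (ENSMUSG00000027478), the other de novo methyltransferase, lies on the plus strand at chr2:153649450-153687730, with 12 transcripts. The promoters of this pair are shown because they are the de novo writers, of which only Dnmt3a split the groups, and because CpG, written CG in capitals, is the substrate of the enzymes they encode. The stretches end at or before the RefSeq start on GRCm38.p6 and lie in no annotated exon of the same gene. Exons of other genes were not checked, and the antisense gene Dnmt3bos (chr2:153648690-153650286) spans the Dnmt3b stretch. They are chr12:3806730-3806979 and chr12:3891494-3891727 for the upstream and internal starts of Dnmt3a and chr2:153649199-153649448 for Dnmt3b.
Dnmt3a upstream start: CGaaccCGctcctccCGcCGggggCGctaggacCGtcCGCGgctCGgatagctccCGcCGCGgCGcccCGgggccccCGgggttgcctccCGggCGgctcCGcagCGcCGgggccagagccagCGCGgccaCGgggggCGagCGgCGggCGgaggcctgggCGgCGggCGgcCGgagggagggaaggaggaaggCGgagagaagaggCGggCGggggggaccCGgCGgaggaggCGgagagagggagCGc
Dnmt3a internal start: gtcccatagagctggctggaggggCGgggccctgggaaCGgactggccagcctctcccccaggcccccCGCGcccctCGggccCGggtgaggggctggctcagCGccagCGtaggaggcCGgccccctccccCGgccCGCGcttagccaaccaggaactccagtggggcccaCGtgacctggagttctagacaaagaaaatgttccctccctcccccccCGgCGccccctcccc
Dnmt3b: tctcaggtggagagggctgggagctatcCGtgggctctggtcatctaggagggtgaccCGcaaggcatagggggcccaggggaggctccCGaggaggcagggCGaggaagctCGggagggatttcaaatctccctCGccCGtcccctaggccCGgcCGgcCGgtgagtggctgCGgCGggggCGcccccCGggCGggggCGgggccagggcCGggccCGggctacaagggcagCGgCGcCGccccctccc

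The upstream Dnmt3a promoter held 38 CpG in the 250 bases before the start, and 98.1% of 32851 RefSeq promoters of that length held fewer. A neighbouring upstream start held 40. The 250 bases before the internal start held 15, of which the 234 bases shown hold all, and the Dnmt3b promoter held 21. The search was for the letters CG, which read the same on both strands. Over all promoters the median was 6 and 92.1% held at least 1. Of the 9 genes, 7 were matched in the RefSeq table with 11 starts, and Tet2 had the most CpG of them (51, above 99.9% of promoters). Dnmt1 had a start with 2 CpG, fewer than any other of these starts. Methylation itself was not measured, so these counts describe the sequence and nothing about its state in ILC2s.

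Among the writers, Dnmt3a measured 5.98, 6.89 and 3.04 FPKM across the Con libraries and 0.04, 0.03 and 0.02 FPKM across the Abx libraries. Every Con library was above every Abx library. Con averaged 5.30 ± 2.01 FPKM and Abx 0.03 ± 0.01 FPKM (SD, n = 3 each). The difference of the mean log2(FPKM + 1), Abx minus Con, was -2.56, which understates the change of a gene this low, and it was -5.30 with 0.1 in place of 1 as the added value. Leaving out any single library gave -2.85 to -2.37. Dnmt3a passed the filter for testing, 1 FPKM or more in 3 or more libraries, through the Con libraries alone. Of the 8718 genes that passed, 8.73% had all Abx libraries below all Con libraries. Of the 1375 genes at 1 FPKM or more in exactly 3 libraries, 16.7% had it in the 3 Con libraries and 3.78% in the 3 Abx libraries.

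Dnmt1 (ENSMUSG00000004099, chr9:20907209-20959888, minus strand), the maintenance enzyme, measured 5.09, 1.96 and 4.26 FPKM across the Con libraries and 0.32, 1.97 and 16.85 FPKM across the Abx libraries. The Abx libraries held both the lowest and the highest value, with the Con libraries in between. Con averaged 3.77 ± 1.62 FPKM and Abx 6.38 ± 9.10 FPKM (SD, n = 3 each). The fitted difference was -0.15 on the log2(FPKM + 1) scale (95% interval -2.59 to 2.30, limma adjusted p = 0.978), opposite in sign to the difference of the FPKM means. It was 0.68 without Abx replicate 1, which held the lowest value.

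Dnmt3b measured 6.39, 0 and 0.02 FPKM across the Con libraries and 0.02, 7.8 and 0 FPKM across the Abx libraries. It thus reached the Con level of Dnmt3a in Con replicate 1 and in Abx replicate 2, and was at or near 0 in the other 4 libraries. It stood under the filter, and the exact permutation test of the difference (0.08 on the log2(FPKM + 1) scale, two-sided) gave p = 0.9. With 3 libraries against 3 this test cannot go below 0.1. The closely related Dnmt3c was listed at 0 in all 6 libraries.

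Within each library, the share of Dnmt3a in the summed FPKM of the 3 methyltransferases does not depend on scaling between libraries. It came to 34.2%, 77.9% and 41.5% across the Con libraries and 10.5%, 0.306% and 0.119% across the Abx libraries, again as a description. The gene that held the rest differed among the Abx libraries. Dnmt1 led in replicates 1 and 3 and Dnmt3b in replicate 2. The summed methyltransferase signal came to 17.46, 8.85 and 7.32 FPKM across the Con libraries and 0.38, 9.8 and 16.87 FPKM across the Abx libraries, so that only Abx replicate 1 was low in all 3 enzymes.

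**Figure D1:**
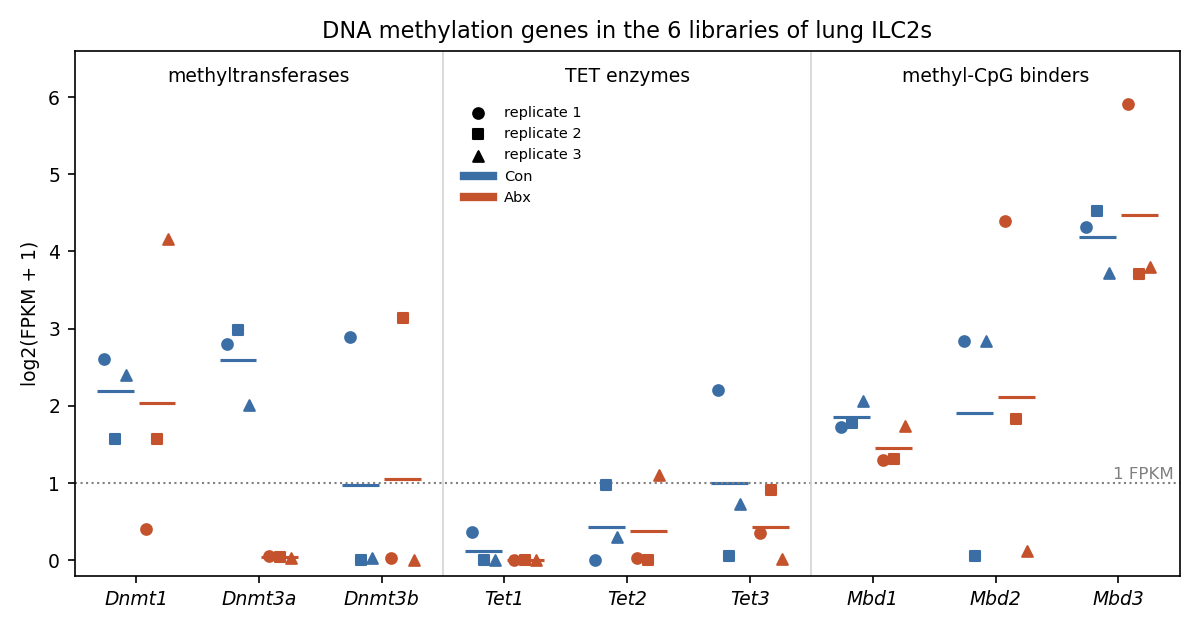
Level of the 9 genes in each library as log2(FPKM + 1) on the vertical axis, blue for Con and red for Abx, with a marker shape per replicate number, a bar at the group mean and a dotted line at 1 FPKM. Dnmt3a is the 1 gene whose groups do not overlap, and Dnmt3b, Tet3 and Mbd2 scatter between near 0 and well above 1 FPKM within a group.

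The erasers were low in these cells. Tet1 (ENSMUSG00000047146, chr10:62804570-62908996, minus strand), the TET enzyme best known from embryonic stem cells, reached 0.29 FPKM in Con replicate 1 and was listed at 0 in the other 5 libraries. Tet2 (ENSMUSG00000040943, chr3:133463679-133545139, minus strand), the family member most studied in blood cells, measured 0, 0.97 and 0.23 FPKM across the Con libraries and 0.02, 0 and 1.14 FPKM across the Abx libraries. Its highest value in Con and its highest in Abx were close, and a library listed at 0 stood in each group.

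Tet3 (ENSMUSG00000034832, chr6:83362373-83459084, minus strand), known for the oxidation of the paternal genome in the zygote, measured 3.63, 0.04 and 0.65 FPKM across the Con libraries and 0.28, 0.88 and 0.01 FPKM across the Abx libraries. Its mean was lower in Abx, with Con replicate 1 as the only library above 1 FPKM. None of the 3 passed the filter. The exact two-sided permutation test gave p = 1.0 for Tet1 and for Tet2 and p = 0.6 for Tet3, whose difference was -0.57 on the log2(FPKM + 1) scale. The summed TET signal came to 3.92, 1.01 and 0.88 FPKM across the Con libraries and 0.3, 0.88 and 1.15 FPKM across the Abx libraries (exact permutation p = 0.5).

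Which TET enzyme made up that sum changed from library to library within both groups. Tet2 held 0%, 96.0% and 26.1% of it in Con and 6.67%, 0% and 99.1% in Abx. These shares are of small sums, in Abx replicate 1 of 0.3 FPKM. The difference of the mean share was -5.46 percentage points (exact permutation p = 1.0). Erasers were also set against the maintenance writer within each library, leaving Dnmt3a out. Summed TET FPKM over Dnmt1 FPKM came to 0.770, 0.515 and 0.207 across the Con libraries and 0.938, 0.447 and 0.0682 across the Abx libraries. The highest ratio, in Abx replicate 1, set 0.3 against 0.32 FPKM, both under 1 FPKM. The groups overlapped, with a difference of the means of -0.01 (exact permutation p = 1.0).

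Summed over its 3 genes, the methyl-CpG binder family had more FPKM than the writers or the erasers in every library but Abx replicate 3. Mbd1 (ENSMUSG00000024561, chr18:74267605-74282732, plus strand), which links methylated DNA to histone H3 methyltransferases, measured 2.31, 2.43 and 3.18 FPKM across the Con libraries and 1.46, 1.49 and 2.33 FPKM across the Abx libraries. It varied least among replicates, and 2 of the 3 Abx libraries lay below all Con libraries while the third lay just above the lowest. Con averaged 2.64 ± 0.471 FPKM and Abx 1.76 ± 0.494 FPKM (SD, n = 3 each). The fitted difference of -0.41 (95% interval -1.75 to 0.94, limma adjusted p = 0.854) did not pass the test, and it turned to 0.21 under quantile normalization.

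Mbd2 (ENSMUSG00000024513, chr18:70568189-70626131, plus strand) recruits the nucleosome remodelling and deacetylase complex, NuRD, to methylated promoters. It measured 6.18, 0.04 and 6.14 FPKM across the Con libraries and 20.06, 2.56 and 0.09 FPKM across the Abx libraries, so that 1 library of each group was near 0. Con averaged 4.12 ± 3.53 FPKM and Abx 7.57 ± 10.9 FPKM (SD, n = 3 each). The fitted difference was 0.21 (95% interval -2.79 to 3.20, limma adjusted p = 0.975), and it was -0.93 without Abx replicate 1 and -0.72 without Con replicate 2.

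Mbd3 (ENSMUSG00000035478, chr10:80392539-80399550, minus strand) is the NuRD subunit that takes the place of Mbd2 and in mammals binds methylated CpG weakly. It measured 18.92, 22.07 and 12.2 FPKM across the Con libraries and 59.18, 12.08 and 12.92 FPKM across the Abx libraries. Apart from Abx replicate 1, the libraries lay between 12.08 and 22.07 FPKM. Con averaged 17.7 ± 5.04 FPKM and Abx 28.1 ± 27.0 FPKM (SD, n = 3 each), with a fitted difference of 0.28 (95% interval -1.27 to 1.84, limma adjusted p = 0.908). Without Abx replicate 1 the difference was -0.43.

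Abx replicate 1 held the highest Mbd2 and Mbd3 values and the lowest Dnmt1 value of all 6 libraries. It also had the fewest genes at 1 FPKM or more (7074) and the most above 0 (14878). The part of this in its values was not tested. Shares within the MBD sum do not depend on the scale of a library. Mbd3 held 69.0%, 89.9% and 56.7% of the summed FPKM of the 3 binders in Con and 73.3%, 74.9% and 84.2% in Abx (exact permutation p = 0.6). Mbd2 held 22.5%, 0.163% and 28.5% in Con and 24.9%, 15.9% and 0.587% in Abx, with a difference of the means of -3.31 percentage points (exact permutation p = 0.8). The share of Mbd2 varied more inside each group than the group means differed.

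**Figure D2:**
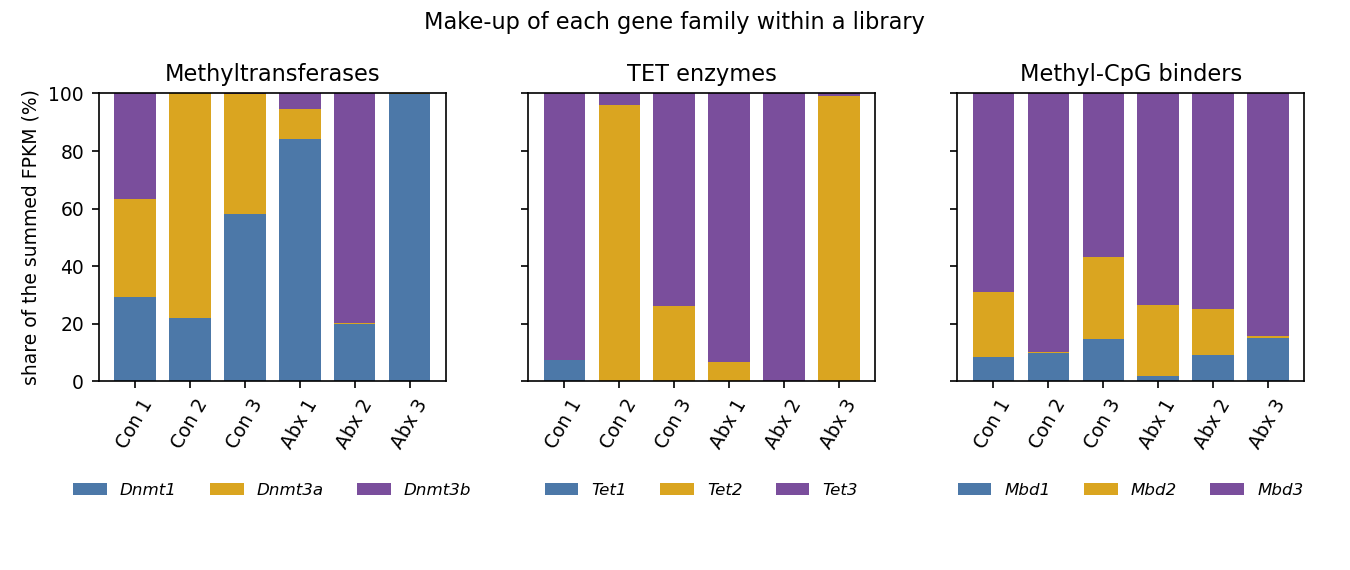
Share of each gene in the summed FPKM of its family (vertical axis, percent) in each of the 6 libraries (horizontal axis), for the methyltransferases, the TET enzymes and the methyl-CpG binders. Mbd3 takes 56.7% to 89.9% of the binder signal in every library, while the leading methyltransferase and the leading TET enzyme change from library to library.

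Ordered by mean level in Con, Mbd3 (17.7 FPKM) came first, then Dnmt3a (5.30), Mbd2 (4.12), Dnmt1 (3.77), Mbd1 (2.64), Dnmt3b (2.14), Tet3 (1.44), Tet2 (0.4) and Tet1 (0.0967 FPKM). Of these neighbours, only Mbd3 and Dnmt3a had ranges over the 3 libraries that did not overlap. In Abx the order was Mbd3 (28.1 FPKM), Mbd2 (7.57), Dnmt1 (6.38), Dnmt3b (2.61), Mbd1 (1.76), Tet3 (0.39), Tet2 (0.387), Dnmt3a (0.03) and Tet1, which was listed at 0 in each Abx library. Here Mbd1 and Tet3 did not overlap, nor did Dnmt3a and Tet1, and all other neighbours did. Dnmt3a thus stood at the second place in Con and the eighth in Abx, and the order of the others by mean kept Mbd3 at the top and the TET enzymes at the bottom.

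Across the 8 genes other than Dnmt3a, 4 passed the filter and 0 of the 4 were called by limma with an adjusted p under 0.05 and a fold change over 2. Of all 8718 genes tested, 0.0459% were called higher in Abx and 0.0115% lower, so 0 of 4 is near the background. With an unadjusted p under 0.05 the count was also 0, beside 11.0% of all genes tested, or 3.61% higher and 5.72% lower where the fold change also exceeded 2. The 4 fitted differences had 2 positive and 2 negative signs and a median of 0.03, against -0.06 over all genes tested. None of the 8 separated the groups, where 17.2% of all genes tested did in either direction. That share covers only genes that passed the filter, so Dnmt3b, Tet1, Tet2 and Tet3 have no background here. Dnmt3b, Tet1 and Tet2 had a Con library listed at 0, so no Abx range could lie below all Con. Tet3 and Mbd2 had one at 0.04 FPKM, which left little room. For these genes the overlap alone cannot tell whether they shared the loss of Dnmt3a.

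A test that was not passed leaves room for a change, and the room differed between these genes. A fall to 0 FPKM in each Abx library would be a difference of -2.19 for Dnmt1 and -1.91 for Mbd2, both inside their 95% intervals. For Mbd1 it would be -1.86 and for Mbd3 -4.19, both outside theirs. Dnmt1 and Mbd2 were nevertheless at 1.97 FPKM or more in 2 Abx libraries each, so neither was lost from all 3 as Dnmt3a was.

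**Figure D3:**
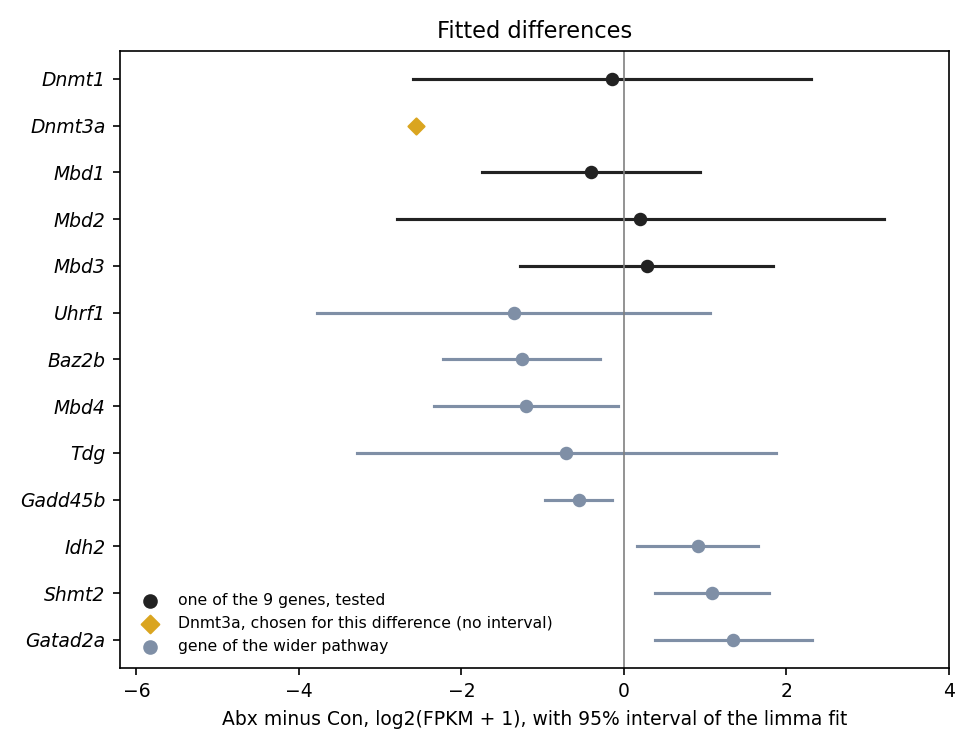
Fitted difference Abx minus Con on the log2(FPKM + 1) scale (horizontal axis) with its 95% interval for the genes tested (vertical axis), black for 4 of the 9 genes and grey for genes of the wider pathway. Dnmt3a, the orange diamond at -2.56, is drawn without an interval because it was chosen for this difference, and the black intervals of Dnmt1, Mbd1, Mbd2 and Mbd3 all include 0.

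The genes most like Dnmt3a were sought among the other 8717 genes tested by the root mean square difference over the 6 libraries of log2(FPKM + 1) minus the mean of Con. The 5 nearest were Rph3al (0.14), Cpsf1 (0.15), Tspan4 (0.17), Pex11a (0.25) and Ube2g2 (0.25). Cpsf1, a subunit of the cleavage and polyadenylation complex, measured 7.3, 5.59 and 3.18 FPKM across the Con libraries and 0.05, 0.06 and 0.07 FPKM across the Abx libraries. Rph3al, a Rab effector of vesicle release, measured 5.47, 8.12 and 3.75 FPKM across the Con libraries and 0.18, 0 and 0.19 FPKM across the Abx libraries. Both were at several FPKM in every Con library and near 0 in every Abx library. The search was made on the Dnmt3a values, so this shape follows from it and is no separate result. In all, 229 genes were at 1 FPKM or more in the 3 Con libraries only. The nearest of the 4 other tested genes was Mbd1 at rank 1886 (1.58), and Dnmt1, Mbd3 and Mbd2 came at ranks 5245, 5425 and 7404.

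The wider pathway was given by a list of 80 genes, of which 52 passed the filter, 25 with a positive and 27 with a negative fitted difference on the log2(FPKM + 1) scale, and 0 were called. The counts by functional group that follow are on this scale, on which Ogt is positive although its Abx mean in FPKM is lower. An unadjusted p under 0.05 was found for 3 with higher and 3 with lower levels, 11.5% of those tested beside 11.0% of all genes. The median difference was -0.11, against -0.06 over all genes tested.

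The factors that guide the writers had 10 of 14 genes tested, 3 positive and 7 negative, and a median of -0.32. Uhrf1, which brings Dnmt1 to hemimethylated DNA, measured 13.27, 17.52 and 8.69 FPKM across the Con libraries and 0.1, 8.23 and 14.13 FPKM across the Abx libraries. It was near 0 in the same Abx replicate 1 in which Dnmt1 was lowest, and its difference of -1.35 did not pass the test (limma adjusted p = 0.709) and was -0.21 without that library. Dnmt3l, the catalytically inactive partner of Dnmt3a in germ cells, was listed at 0 in 5 libraries and at 0.03 FPKM in Abx replicate 1.

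The demethylation and base excision repair group had 12 of 19 genes tested, 4 positive and 8 negative, and a median of -0.58. Tdg, the glycosylase that excises oxidised methylcytosine, measured 12.25, 7.89 and 3.96 FPKM across the Con libraries and 6.88, 0.04 and 15.31 FPKM across the Abx libraries. It was near 0 in Abx replicate 2 only, with a difference of -0.71 (limma adjusted p = 0.868) that was 0.44 without that library. Neil2 and Apobec2 were listed at 0 in all 6 libraries.

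Mbd4, a glycosylase for deaminated CpG that carries a methyl-CpG binding domain, measured 68.76, 37.84 and 56.05 FPKM across the Con libraries and 11.51, 35.35 and 26.77 FPKM across the Abx libraries. All Abx libraries lay below all Con libraries, with 37.84 and 35.35 FPKM as the nearest values. Its difference was -1.20 ± 0.48 (SE, limma adjusted p = 0.405), and -0.76 without Abx replicate 1. Gadd45b, a stress gene linked to active demethylation, measured 1900.71, 2028.56 and 2638.72 FPKM across the Con libraries and 1491.57, 1497.25 and 1444.51 FPKM across the Abx libraries. The groups did not overlap, and the difference was -0.55 (limma adjusted p = 0.256).

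The other methyl-CpG readers had 3 of 10 genes tested, 2 positive (Zbtb38 at 0.29 and Setdb2 at 0.73, both overlapping) and 1 negative, and a median of 0.29. The negative one, Baz2b, which carries a domain related to the methyl-CpG binding domain, measured 93.86, 100.7 and 59.45 FPKM across the Con libraries and 22.08, 56.48 and 31.08 FPKM across the Abx libraries. The groups did not overlap and the difference was -1.26 (limma adjusted p = 0.27).

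The NuRD partners of Mbd2 and Mbd3 had 10 of 12 genes tested, 5 in each direction, and a median of -0.06. Gatad2a, the subunit that joins the MBD protein to the remodeller, measured 27.98, 29.67 and 55.12 FPKM across the Con libraries and 146.49, 66.56 and 81.49 FPKM across the Abx libraries. Every Abx library was above every Con library, with a difference of 1.35 (limma adjusted p = 0.229). As with Mbd2 and Mbd3, the highest value was in Abx replicate 1. The CXXC proteins, which bind unmethylated CpG, had 5 of 8 genes tested, 4 positive and 1 negative, and a median of 0.44.

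The metabolic supply of the writers and erasers was represented by genes of the methyl donor cycle and of TET cofactors. Of the methyl donor genes 8 of 11 were tested, 4 in each direction, with a median of -0.20. Shmt2, the mitochondrial serine hydroxymethyltransferase that feeds folate with single carbons, measured 53.16, 37.95 and 49.63 FPKM across the Con libraries and 98.93, 77.58 and 128.72 FPKM across the Abx libraries. All Abx libraries lay above all Con libraries, with a difference of 1.08 (limma adjusted p = 0.182).

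Among the TET cofactor genes 4 of 6 were tested, 3 positive and 1 negative, with a median of 0.54. Idh2, which makes the 2-oxoglutarate that TET enzymes need, measured 21.42, 27.2 and 27.99 FPKM across the Con libraries and 56.42, 46.29 and 43.54 FPKM across the Abx libraries. The groups did not overlap and the difference was 0.91 (limma adjusted p = 0.313). In all, 3 of the 52 genes tested did not overlap with higher Abx values and 4 with lower, beside 8.49% and 8.73% of all genes tested. The fourth lower gene, Ahcyl2, singled out after its values were seen, measured 3.03, 3.92 and 4.57 FPKM across the Con libraries and 2.29, 1.97 and 1.62 FPKM across the Abx libraries (limma adjusted p = 0.747). Genes under the filter are outside these counts. Of them Idh1 and Mbd6 were higher in Abx without overlap, and none was lower without overlap. Idh1 measured 0.04, 0.13 and 0.13 FPKM across the Con libraries and 18.85, 14.28 and 0.14 FPKM across the Abx libraries.

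**Figure D4:**
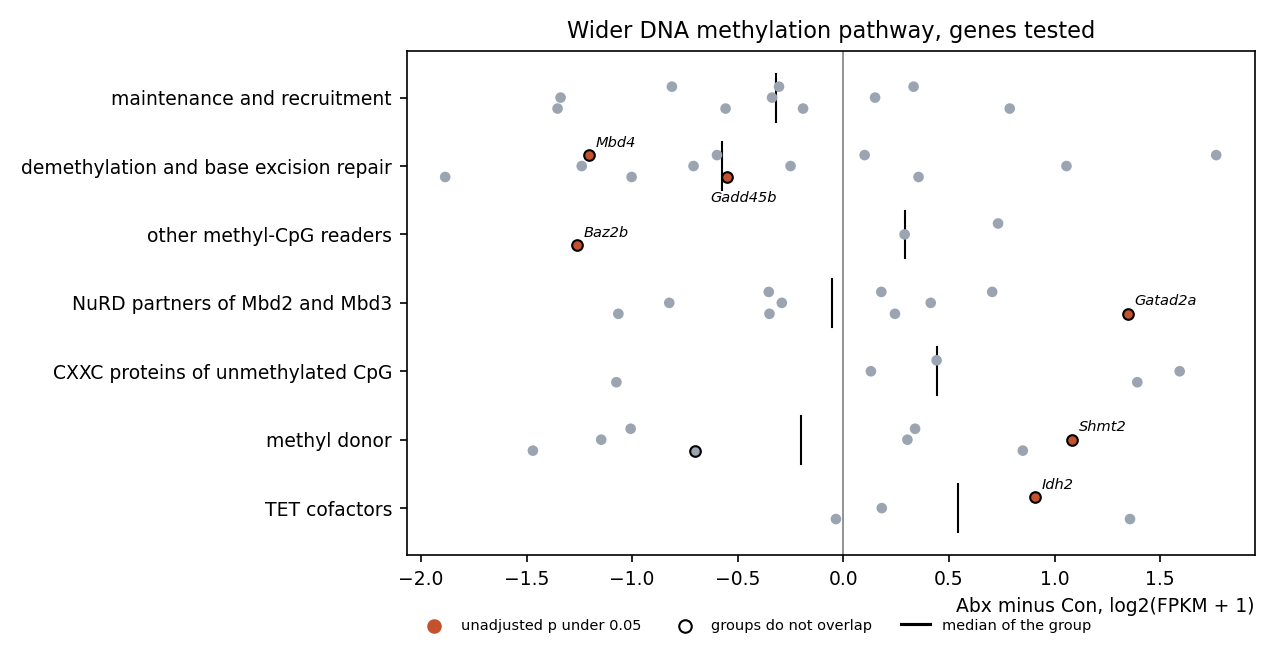
Fitted difference Abx minus Con on the log2(FPKM + 1) scale (horizontal axis) for the 52 tested genes of the wider pathway by functional group (vertical axis), with red points for an unadjusted p under 0.05, black outlines where the groups of libraries do not overlap and a line at the median. The 6 red points fall on both sides of 0, with 3 lower (Mbd4, Gadd45b, Baz2b) and 3 higher (Gatad2a, Shmt2, Idh2).

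Several properties of the libraries moved with the groups beside these genes. The ILC2 markers, 12 genes, summed to 2075.16 to 2335.02 FPKM in Con and 1198.31 to 1503.02 FPKM in Abx, with Gata3 at 33.9 FPKM or more in every library and Il1rl1 under 3 FPKM throughout. Areg, Icos and Arg1 lay lower in Abx without overlap and Ptprc higher, and 5 of the 11 tested ILC2 markers had a positive fitted difference. Il1rl1, under the filter, also lay lower without overlap, at 0.06 to 2.94 FPKM in Con and 0.01 to 0.03 FPKM in Abx. Markers of cycling cells, 8 genes, summed to 172.63 to 220.04 FPKM in Con and 342.5 to 378.97 FPKM in Abx. Most of this sum was Pcna, and with Mcm2 and Top2a it was higher in Abx without overlap, whereas Mki67, Cdk1, Ccnb1, Mcm5 and Rrm2 overlapped and Mki67 had a lower mean in Abx. The 6 B cell markers summed to 255.38 to 293.82 and 538.63 to 595.88 FPKM, the 7 T cell markers to 120.92 to 141.08 and 243.66 to 273.4 FPKM, and the 5 NK cell markers to 0 to 21.69 and 215.41 to 223.6 FPKM, in Abx from Gzma alone, with Klrb1c and Prf1 at 0 throughout. Of the tested B cell markers Ighm, the highest of them in Abx, and Ms4a1 were higher without overlap and Cd79b was lower without overlap. Of the T cell markers Cd3d and Cd3g were higher without overlap, while Cd3e, Cd4, Cd8a, Cd5 and Trac overlapped. No B or T cell marker was at 0 in all libraries, and the lineage antibodies of the sort were directed at T, B, NK and myeloid cells. The 4 mast cell and basophil markers summed to 338.56 to 425.26 FPKM in Con and 184.91 to 295.02 FPKM in Abx, and the summed markers of myeloid cells, neutrophils, epithelium, endothelium, fibroblasts and erythroid cells overlapped between the groups. Of the tested genes in these lists, Mcpt8 and Kit were lower in Abx without overlap. The epithelial Sftpc was higher without overlap (11.26 to 36.82 FPKM in Con and 48.31 to 56.09 FPKM in Abx), and the others overlapped. Xist, the transcript of the inactive X chromosome, was at 3.78 to 5.09 FPKM in Con and listed at 0 in Abx, and the Y-linked Eif2s3y was at 0.03 to 0.86 and at 11.85 to 24.37 FPKM. Differences that go with sex and with Abx exposure therefore cannot be told apart, for Dnmt3a or for any other gene compared here. The number of genes at 1 FPKM or more was 8574 to 9203 in Con libraries and 7074 to 8193 in Abx libraries. The part of these properties in the Dnmt3a values was not tested. In sorted bulk cells, fewer cells that carry a transcript and less of it per cell cannot be told apart.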

How the data were processed

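The authors trimmed reads with Cutadapt, mapped them with HISAT2 and deposited FPKM per gene from StringTie, which they compared with DESeq2. The methods name a human Ensembl annotation, and the submitters' processing notes name Bowtie 0.12.2, mm8 and mm9, whereas the genes carry mouse Ensembl identifiers, of which 55134 are in GENCODE M21 (GRCm38), the source of the coordinates here, and 260 are not. Low values, with those nearest 0 left out, did not lie on steps of a whole read (23.4% to 25.9% within 0.1 reads of one, where 20.0% is an even spread). The length used was that of all exons of a gene, so a sum over transcripts of different length need not show such steps. Only FPKM are given, so no count test was used and the depth is unknown. StringTie divides reads among overlapping transcripts, and the kit is not described as stranded. Dnmt3aos and Dnmt3bos, antisense to their host genes, and Dnmt3a-ps1 were listed at 0 throughout.

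The 8718 genes with 1 FPKM or more in 3 or more libraries were tested on log2(FPKM + 1) with limma 3.58.1 in R 4.3.3 (lmFit, eBayes with trend, two-sided, Benjamini-Hochberg over all of them). Calls needed an adjusted p under 0.05 and a fold change exceeding 2. Other genes and within-library shares were tested by exact two-sided permutation (scipy 1.17.1). Groups came from the sample labels. The fit was checked on simulated data with normal noise, which do not imitate genes that are near 0 in single libraries. Members, lists and tests were chosen with earlier results of these data known. Tested pathway genes were named where the unadjusted p was under 0.05 or the groups did not overlap with a fold change over 2. Uhrf1, Tdg, Mbd4 and Dnmt3l were named whatever their values. Some genes that the rules name are not reported here. Alternatives were other added values, normalizations and filters, robust variance estimation, a replicate block, and leaving out each library. The shared replicate numbers did not pair the samples.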

Additional observations from a re-analysis of the deposited data

How the results depend on the processing

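The numbers of called genes depended on the settings. Over all genes, 4 were called higher and 1 lower in Abx. With added values of 0.1 or 0.01, median centring, no filter or a replicate block, 0 were called in either direction. Quantile normalization and the stricter filter each called 5 higher and 2 lower. Leaving out single libraries gave 0 higher in each case and 0 to 2 lower, and without adjustment 315 were higher and 499 lower at a fold change over 2. The cause was not tested. Of the 8 genes other than Dnmt3a, and of the wider pathway list, 0 were called under each of these alternatives that adjusts for multiple tests. Limma adjusted p ranged over the alternatives from 0.527 to 0.999 for Dnmt1, 0.751 to 0.961 for Mbd1, 0.721 to 0.976 for Mbd2 and 0.728 to 0.999 for Mbd3.

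Quantile normalization, which moved the median of all genes from -0.06 to 0.03, turned the sign for Dnmt1 (0.35), Mbd1 (0.21) and the ratio of TET to Dnmt1 FPKM (0.0621). Leaving out single libraries turned the sign in the ranges -1.20 to 0.68 for Dnmt1, -0.93 to 1.20 for Mbd2, -0.43 to 0.67 for Mbd3, -1.55 to 0.44 for Tdg, -37.4 to 22.2 percentage points for the Tet2 share, -11.8 to 3.28 points for the Mbd2 share and -0.24 to 0.19 for the ratio of TET to Dnmt1. Mbd1 stayed between -0.55 and -0.30 and Dnmt3a between -2.85 and -2.37. Dnmt3a was -5.30 and -7.00 with 0.1 and 0.01 added.

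The replicate block gave 0 calls higher and 0 lower. Same-numbered libraries of the groups did not deviate together (r across genes -0.02, -0.03 and 0.01), so the numbers were not read as pairs. No member symbol had a further entry, so that alternative gave no value.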

Other observations

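Genes whose promoters are classic targets of DNA methylation were looked at beside the enzymes, in lists chosen with the Dnmt3a values known. Of 18 germline genes that somatic cells keep silent by promoter methylation, 12 were listed at 0 in all 6 libraries and none passed the filter. The number at 1 FPKM or more was 1, 0 and 1 across the Con libraries against 1, 0 and 0 across the Abx libraries. Dazl, an RNA-binding protein of germ cells, was at 2.4 FPKM in Con replicate 1, Tex15, a meiotic gene, at 1.12 FPKM in Con replicate 3, and Dppa3, a maternal factor that protects methylation in the zygote, at 1.39 FPKM in Abx replicate 1. No germline gene was at 1 FPKM or more in more than 1 library.

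Of 16 imprinted genes, whose single active allele is set by methylation, the number at 1 FPKM or more was 3 in each Con library against 3, 1 and 1 across the Abx libraries. Cdkn1c, a cell cycle inhibitor, measured 2.36, 4.28 and 12.49 FPKM across the Con libraries and 8.29, 0 and 0 FPKM across the Abx libraries. Its difference of -1.56 on the log2(FPKM + 1) scale did not pass the test (limma adjusted p = 0.673). Zrsr1, a splicing factor gene, was the other one tested, with a difference of -0.43 (limma adjusted p = 0.897). Mest measured 4.1, 0.11 and 8.58 FPKM across the Con libraries and 0.51, 0.08 and 0.24 FPKM across the Abx libraries. Snrpn measured 3.62, 0.03 and 0.03 FPKM across the Con libraries and 11.92, 0 and 0.09 FPKM across the Abx libraries, high in the replicate numbered 1 of each group. Kcnq1ot1, an antisense RNA of an imprinted cluster, measured 0, 0 and 0.02 FPKM across the Con libraries and 0.15, 0.63 and 0.85 FPKM across the Abx libraries. Nnat, Meg3 and Peg3 also had every Abx library above every Con library, with Nnat in Abx replicate 1 (1.16 FPKM) the only value of these 4 genes above 1 FPKM. Meg3 was at 0.01 to 0.02 FPKM in Con and 0.06 to 0.19 FPKM in Abx, and Peg3 at 0.01 and 0.02 to 0.04 FPKM. The exact two-sided permutation test gave p = 0.1 for each, the smallest it can give. How many of all genes under the filter split in this way was not counted, so no rise of imprinted genes is read from these values. Allelic expression cannot be read from these values.

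Dnmt3b reached 1 FPKM in 2 libraries, Tet3 in 1 and Mbd2 in 4. Of all genes that reached 1 FPKM in any library, 20.8% did so in 1 library, 11.9% in 2, 10.6% in 3, 10.8% in 4, 13.0% in 5 and 32.8% in all 6. Correlation of the tested genes between libraries, across genes that are not independent, ranged from 0.805 to 0.846 among the Con libraries, from 0.655 to 0.69 among the Abx libraries, and from 0.674 to 0.766 for pairs of unlike group. By this measure an Abx library was no more like another Abx library than like a Con library.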
